A study of Mus musculus with 2 samples.

Results

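The class I odorant receptor cluster of the mouse is a run of receptor genes on chromosome 7, from Olfr543 to Olfr692. Its members were all protein-coding gene models whose symbol starts with Olfr and digits between positions 102476579 and 105369355 of GRCm38. This gave 129 genes, which is 11.4% of the 1135 protein-coding odorant receptor models of the genome. Of the 129, 124 have a plain symbol and 5 a further suffix of the pseudogene kind, namely Olfr548-ps1, Olfr573-ps1, Olfr588-ps1, Olfr625-ps1 and Olfr680-ps1, which the annotation nevertheless classes as protein-coding. The choice used position and name only, and no measured value.

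The measurement was in situ Hi-C, which joins and sequences DNA fragments that lie close together in fixed nuclei. It was done on mature olfactory sensory neurons that express Olfr1507 (MOR28), sorted by the GFP of a MOR28-GFP allele from olfactory epithelium, the mice being 129P2/OlaHsd adults of mixed sex. There was 1 group with no treatment and no control, made of 2 biological replicates of 170000 and 220000 cells, which were fixed in 1% formaldehyde and cut with DpnII. The sorted receptor Olfr1507 lies on chromosome 14, outside the class I cluster, so no class I gene was the receptor by which the cells were selected.

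What is described here is the authors' list of 7367 boundaries, called on the contacts of both replicates together. Each entry is 5000 bp wide and has a strength, which is the authors' own score, and a class that changes from weak to strong at a strength of 0.5. The list holds 1 value per boundary. It gives no replicate error and no read depth, it cannot show whether the sorted cells match their label, and it allowed no test of a difference between the cluster and the rest of the genome. Values of the cluster and of other regions are therefore set side by side without a p-value.

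At a boundary few Hi-C contacts cross, so that the DNA on each side contacts itself more than the other side. Class I receptors, also called fish-like receptors, are the older class of odorant receptors of vertebrates. In the mouse they mostly lie together in 1 cluster, whereas class II receptors are spread over many. Each olfactory sensory neuron expresses 1 receptor allele, the other receptor genes being silent, and a long-range enhancer known as the J element acts on many class I genes. The cluster also encloses the beta-globin genes, which are used in red blood cell precursors.

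CTCF, a DNA-binding protein, is known to sit at many boundaries, so the reference sequence was searched on both strands for the CTCF core motif of 12 bases. The cluster held 12 matches without a mismatch, 7 on the forward and 5 on the reverse strand. The sites that the later results refer to are given 5′ to 3′ on the strand of the match, with the motif in capitals and 9 bases on each side. The first lies at a boundary, the second between Olfr67 and the beta-globin genes, the next 3 are examples from exons of Trim genes, and the last 3 lie in or beside receptor genes.
Olfr554 site, chr7:102636910-102636921, reverse strand: taaccctttCCAGTAGAGGGCgccaaacct
Olfr67 site, chr7:103793094-103793105, forward strand: tgttgcataCCAGTAGGGGGCagaagtgtt
Trim5 exon site, chr7:104279385-104279396, forward strand: ctcacaaagCCAGCAGATGGCcatcatgtc
Trim30b exon site, chr7:104365829-104365840, forward strand: ctcacaaacCCAGCAGATGGCcatcatgtc
Trim30d exon site, chr7:104487648-104487659, forward strand: cttacaaagCCAGCAGATGGCcatcatgtc
Olfr652 site, chr7:104569409-104569420, reverse strand: gtctatgctCCAGTAGATGGCcccatagcc
Olfr671 site, chr7:104972704-104972715, reverse strand: gattatgctCCAGTAGATGGCcctatgcaa
Olfr675 exon site, chr7:105022726-105022737, reverse strand: acccatgctCCAGTAGATGGCcctacatgc
The coordinates are those of the 12 capital bases in GRCm38. Of the 12 matches, 6 lay in exons of the Trim genes Trim5, Trim12a, Trim12c, Trim30b, Trim30c and Trim30d, all on the forward strand and all with the same 12 bases, and the 3 sites at Olfr652, Olfr671 and Olfr675 shared another core. The 12 matches thus held 5 different core sequences.

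The cluster spanned 2.89 Mb and held 8 boundaries, of which 2 were strong and 6 weak, numbered 1 to 8 here from Olfr543 onward. Their strength had a median of 0.277, against 0.378 for the 52 boundaries inside the other 32 receptor clusters, 0.605 for the 417 boundaries of chromosome 7 and 0.563 for the whole list. The lowest strength in the list is 0.2, and 3 boundaries of the cluster lay between 0.209 and 0.258. Strong boundaries made up 25% of the 8 (95% Wilson interval 7.15 to 59.1%), against 22 of 52 (42.3%) in the other clusters and 55% of the list. With 8 boundaries the interval of the cluster's share holds both other shares.

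**Figure D1:**
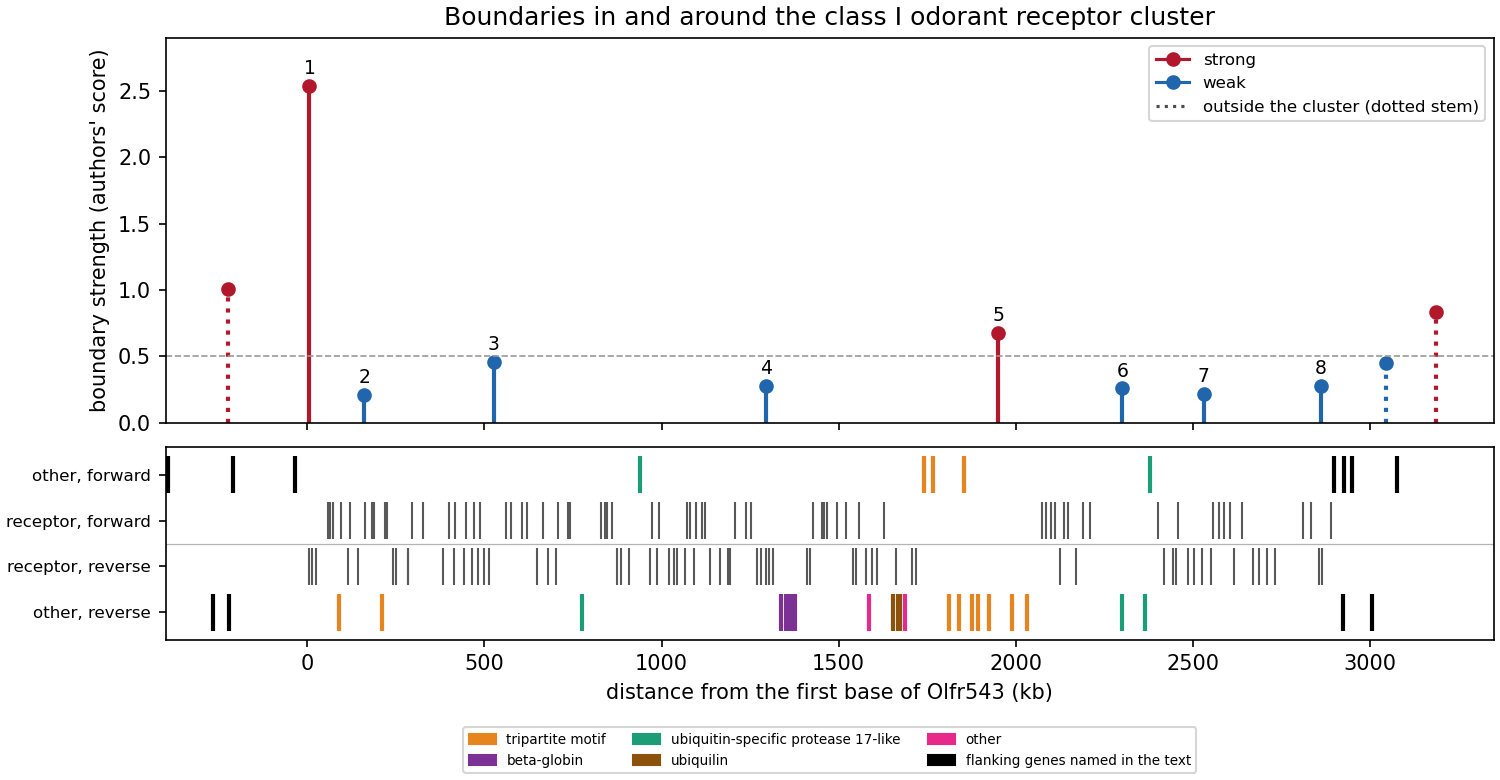
Strength of each boundary (authors' score, upper panel) and start sites of genes by strand (lower panel), against the distance in kb from the first base of Olfr543. Boundary 1 stands at 2.53 at the left edge of the cluster, boundary 5 at 0.679 is the other strong one, and the 6 weak ones lie between 0.209 and 0.460. The dashed line marks 0.5, where the class changes, and dotted stems are boundaries outside the cluster.

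The boundary at the Olfr543 end of the cluster was the strongest of the locus. It lay at chr7:102480001-102485000 with a strength of 2.53, higher than 99.4% of the list and 3.73 times that of the next strongest boundary in the cluster. It covered the start of Olfr543 and the 3′ end of Olfr544, a receptor also known to respond to azelaic acid, both transcribed on the reverse strand. The TSS (transcription start site, the 5′ end of the gene model) of Olfr543 was 0.821 kb from its midpoint and that of Olfr544 5.81 kb. Outside this boundary lay Rrm1, which encodes the large subunit of ribonucleotide reductase and ended 6.81 kb before Olfr543, then Stim1, the calcium sensor of the endoplasmic reticulum, and Rhog, a small GTPase. Of the 64 edges of the other receptor clusters, 3 had a nearest boundary stronger than this one.

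The other end of the cluster was not marked in this way. The boundary nearest to its last base lay 31.9 kb inside, at chr7:105335001-105340000, with a strength of 0.277, and the nearest strong boundary was 293 kb away, beyond the cluster. The edges of the other clusters had a median distance of 39.9 kb to their nearest boundary, against 5.92 and 31.9 kb for the edges of the class I cluster. Olfr691 and Olfr692, the last members, therefore shared an interval with genes outside the cluster. These were Fam160a2, whose 3′ end lay 1.86 kb past Olfr692, Gm5901, Cnga4, which encodes a subunit of the olfactory cyclic nucleotide-gated channel, Cckbr, a receptor for gastrin and cholecystokinin, and Cavin3, a protein of caveolae. Trpc2, the channel of vomeronasal signalling, lay 380 kb to the left of the cluster, beyond the strong boundary at Rhog (strength 1.01) as well.

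Inside the cluster, 5 boundaries touched a receptor gene or receptor pseudogene, 1 lay on another pseudogene and 2 on a gene of another family. Boundary 2, at chr7:102635001-102640000 with a strength of 0.209, covered the start of Olfr554. Boundary 3, at chr7:103000001-103005000 with 0.460, lay on the pseudogene AC161520.1, 13.2 kb from the TSS of Olfr578. The next one, at chr7:103770001-103775000 with 0.276, covered the start of Olfr69 and the 3′ end of Olfr68. These receptors stand just before the beta-globin genes.

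Boundary 5, at chr7:104425001-104430000 with a strength of 0.679, lay within Trim30a and overlapped one of its exons. Trim30a belongs to the tripartite motif family of ubiquitin ligases, many of which act in innate immunity. No member TSS lay within 100 kb of it, the nearest being that of Olfr651 at 123 kb. Boundary 6, at chr7:104775001-104780000 with 0.258, lay on the start of Usp17le, a deubiquitinase gene whose TSS was 0.030 kb from the boundary's midpoint. Boundary 7, at chr7:105005001-105010000 with 0.215, lay on the pseudogene Olfr674-ps1, 5.47 kb from the TSS of Olfr672. Boundary 8, the weak one near the last edge, covered the 3′ end of Olfr691. The strengths of the 6 weak boundaries were ranked between 2.49% and 41.5% of the list, and 1 of the 6 lay above 20%.

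Parts of the cluster are near-copies of each other, and a short read from such a copy can match more than 1 place. Of the 32-base words read every 250 bp across the cluster, 72.4% occurred once in the reference genome, against 78.7% on chromosome 7. Read every 1000 bp, the share was 71.9% in this cluster and ran from 64.6 to 87.9% in the other receptor clusters. In windows of 25 kb around the 8 boundaries the share of unique words ran from 47% at boundaries 2 and 6 and 49% at boundary 5 to 90% at boundary 1. The strongest boundary thus stood in the window with the most unique words, and the part of mappability in the strengths was not tested. Repeats, as soft-masked in the reference, covered 43.0% of the cluster, against 35.4% of chromosome 7, and its GC content was 39.4%, against 43.1%.

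The 129 receptor genes fell into 9 intervals between neighbouring boundaries, with very unequal numbers. Numbered from left to right, intervals 1 to 9 held 1, 9, 23, 42, 20, 10, 8, 14 and 2 members. Members were assigned by TSS against boundary midpoints. Those of Olfr543, Olfr554 and Olfr69 lay inside a 5000 bp entry, so their interval rests on this rule. Intervals 3 and 4 together held 65 of the 129 (50.4%). Interval 4, with Olfr582 to Olfr69, was 770 kb long, longer than 93.5% of all intervals in the list, and was nearly all receptors, with Usp17ld and Usp17lc as the only other protein-coding genes. Interval 5, with Olfr68 to Olfr649, was 655 kb long and held 20 receptors beside 18 other genes. The median length of the 9 intervals was 330 kb, against 265 kb over all 7347 intervals. Counting each member's own interval, the median was 365 kb, against 560 kb for the other receptor genes counted in the same way.

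**Figure D2:**
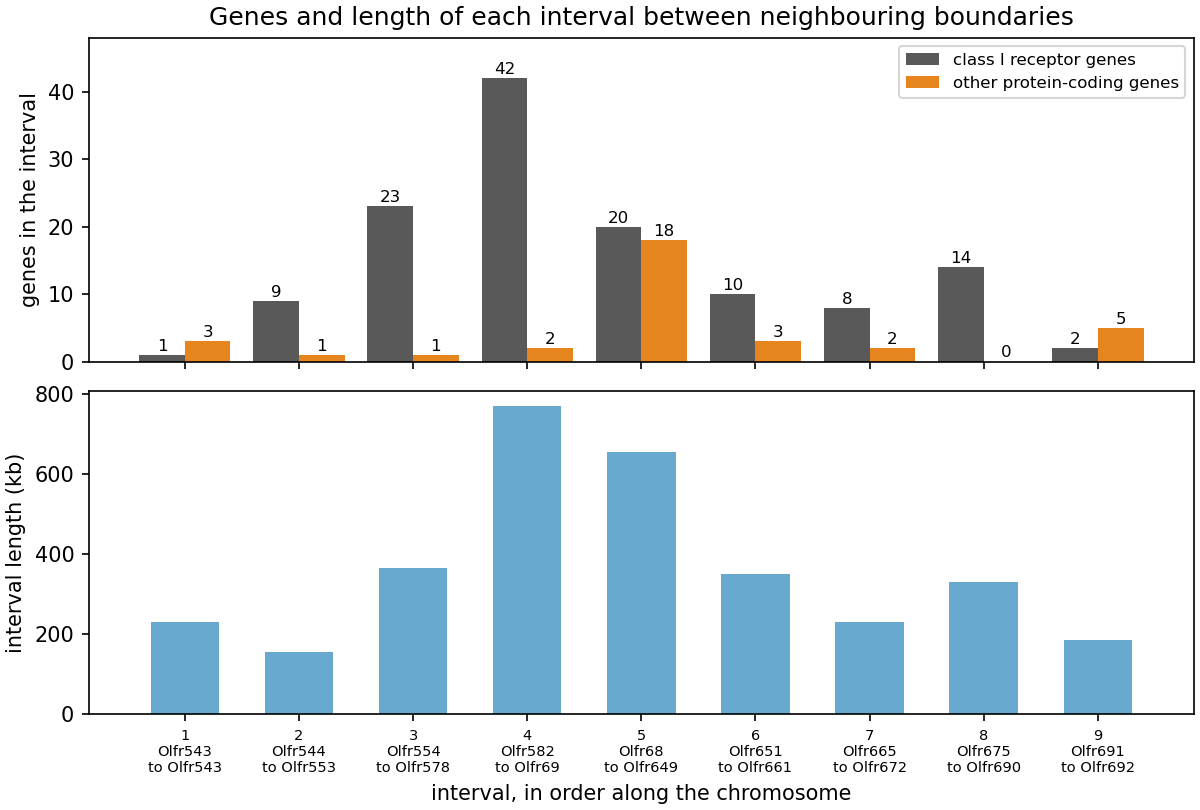
Number of class I receptor genes and of other protein-coding genes (upper panel) and length in kb (lower panel) of the 9 intervals between neighbouring boundaries that hold a member. Interval 4 holds 42 receptors and 2 other genes, while interval 5 holds 20 receptors and 18 other genes; the outer intervals reach beyond the cluster.

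Receptor genes were packed most densely on the left. Intervals 2, 3 and 4 held 5.81, 6.30 and 5.45 members per 100 kb, against 3.05, 2.86, 3.48 and 4.24 in intervals 5 to 8. The transcribed strand was shared almost evenly over the cluster, with 65 members on the forward and 64 on the reverse strand, and it switched at 55 of the 128 steps between neighbours. Interval 6 leaned to one side with 8 of its 10 members on the forward strand, and interval 7 to the other with 6 of 8 on the reverse strand. Neighbouring TSSs were a median of 15.4 kb apart. The longest gap, 354 kb between Olfr649 and Olfr651, holds 10 Trim genes and the strong boundary within Trim30a.

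With the 6 weak boundaries left aside, the 2 strong ones divided the cluster into 3 unequal groups. By its TSS, Olfr543 stood alone on the outer side of the midpoint of the first. This TSS lay inside the 5000 bp entry, 0.821 kb from the midpoint, so its side is finer than the width of the entry. Between the strong boundaries an interval of 1945 kb held 94 members, Olfr544 to Olfr649. Beyond Trim30a an interval of 1235 kb held the remaining 34, Olfr651 to Olfr692, together with the genes outside the cluster up to the next strong boundary. The division into smaller groups rested on the weak boundaries alone.

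Few members lay at a boundary. To count, a TSS had to fall within the boundary or the 10 kb before or after it. Of the 129 members 8 did so (6.20%, Wilson interval 3.18 to 11.8%), against 59 of the 1006 other receptor genes (5.86%, 4.57 to 7.49%), and 13% of all 21755 protein-coding genes. The 8 were Olfr543 and Olfr544 at boundary 1, Olfr554 at boundary 2, Olfr69 and Olfr68 at boundary 4, Olfr672 at boundary 7, and Olfr690 and Olfr691 at boundary 8. Olfr543, Olfr554 and Olfr69 had their TSS inside the 5000 bp themselves. The interval of the members' share holds that of the other receptors and ends below that of all coding genes. These intervals cover counting error only, and neighbouring genes share boundaries and are not independent.

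Distances gave the same picture. The members' TSSs were a median of 122 kb from the midpoint of the nearest boundary (quartiles 52.2 and 199 kb), against 116 kb for the other receptors (57.3 and 213 kb) and 59.2 kb for the 20620 other coding genes (26.7 and 106 kb). Within 100 kb of a boundary lay 42.6% of the members, 45.2% of the other receptors and 72.8% of the other coding genes. Members of interval 5 were a median of 229 kb and those of interval 4 a median of 191 kb from a boundary, against 45.6 kb in interval 2, the shortest. The farthest member was Olfr603, 384 kb from the nearest boundary in the middle of interval 4. Olfr78 and Olfr558, named here because they are known for roles outside the nose and not by their values, lay in interval 3 at 122 and 64.7 kb.

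**Figure D3:**
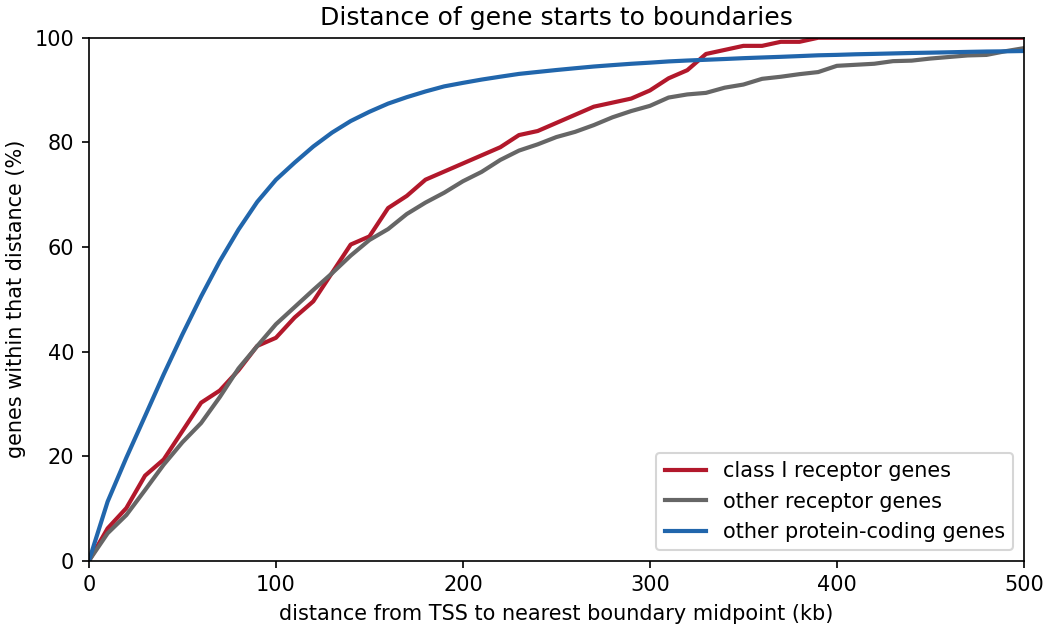
Share of genes (%) whose start site lies within a given distance (kb) of the nearest boundary midpoint, for class I receptors, other receptors and other protein-coding genes. The curves of both receptor groups run close together up to about 150 kb and below that of other genes, with medians of 122, 116 and 59.2 kb.

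The class I cluster had 2.77 boundaries per Mb, against 1.9 in the other 32 receptor clusters pooled and 2.94 on chromosome 7. With strong boundaries only the order turned, with 0.691 per Mb in the class I cluster against 0.804 in the other clusters pooled, so the higher density rested on weak boundaries. Boundary 1 counted as inside because its midpoint lay 5.92 kb within the edge. Boundaries just outside an edge were not counted, such as the one 1.19 kb from the edge at Olfr1344, so densities and ranks depend on where the edges are set. Clusters were runs of at least 5 receptor genes less than 500 kb apart. The class I cluster ranked 8 of 33 by the density of all boundaries, 14 of 33 by that of strong ones, and, again over all boundaries, 3 of the 10 clusters of at least 30 genes, where the other 9 ran from 0.985 to 3.27. The largest cluster, on chromosome 2, held 227 receptor genes and also had 8 boundaries, 1.58 per Mb, of which 1 was strong. The 5 other receptor clusters of chromosome 7, with 110 genes, had 3 boundaries in all, 1.13 per Mb and 0 of them strong. The class I cluster enclosed 27 other protein-coding genes, against at most 16 in any other cluster and 99 in all of those. These are counts over unlike lengths, 2.89 Mb for the class I cluster and 27.4 Mb for the others together. Some shorter clusters held more per Mb, such as Olfr722 to Olfr750 with 16 in 1.18 Mb and Olfr1370 to Olfr1359 with 13 in 0.638 Mb.

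**Figure D4:**
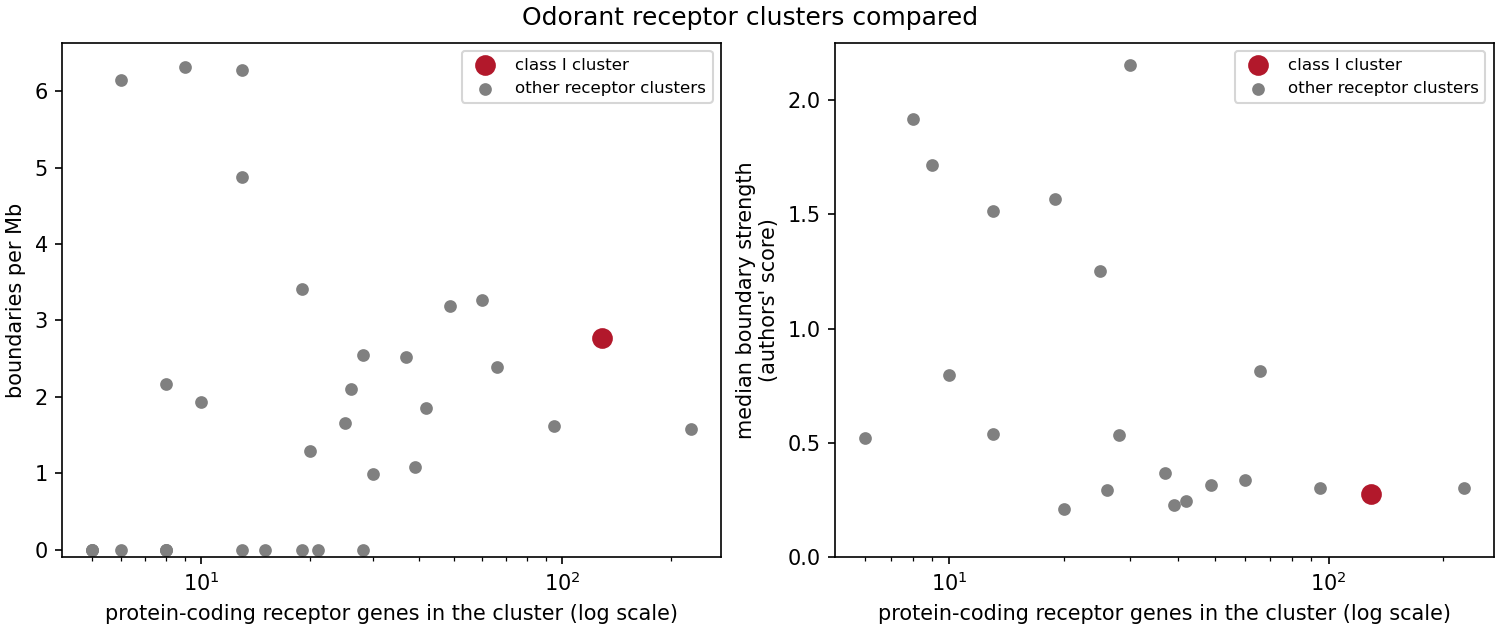
Boundaries per Mb (left) and median strength of the boundaries inside (authors' score, right) against the number of receptor genes on a log axis, with 1 point per receptor cluster and the class I cluster in red. The class I cluster lies at 2.77 boundaries per Mb and a median strength of 0.277; clusters without a boundary are missing on the right.

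The 27 enclosed genes belonged to few families. They were 12 tripartite motif (Trim) genes, 5 beta-globin genes, 5 genes of Usp17-like deubiquitinases, 3 ubiquilin genes, which encode shuttle factors for the proteasome, and 4930516K23Rik and Olfm5. Usp17le was the only one of the 27 with a TSS at a boundary. The beta-globin genes Hbb-bt, Hbb-bs, Hbb-bh2, Hbb-bh1 and Hbb-y, of which Hbb-bt and Hbb-bs are the adult and Hbb-y and Hbb-bh1 embryonic genes, all lay in interval 5 with receptors on both sides. Their TSSs were 41.5 to 80.7 kb from boundary 4 on the left, and Olfr67 and Olfr68 stood between. To the right, no boundary was listed between Hbb-y and the strong one in Trim30a. The globin genes thus shared an interval with 20 receptors and 8 of the 12 Trim genes, while Trim30a and Trim30d had their TSSs in interval 6, and Trim21 and Trim68 lay in intervals 2 and 3.

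Without mismatches, the CTCF motif was found at a single boundary of the cluster. Within 10 kb of its interval, 1 of the 8 boundaries had a match (12.5%, Wilson interval 2.24 to 47.1%), against 23.9% of all boundaries. This was the Olfr554 site shown above, 0.584 kb from the midpoint of boundary 2, which has the lowest strength of the 8. The strongest boundary, at Olfr543, had no match without mismatches in this window. With up to 1 mismatch allowed, 6 of the 8 had a match, against 88.4% of all boundaries. Matches of the cluster numbered 4.15 per Mb, against 5.68 on chromosome 7. Interval 5 held 6, all on the forward strand, of which 5 were the Trim exon copies and 1 was the Olfr67 site. The Olfr67 site lay 20.6 kb from boundary 4 on the globin side. A CTCF-bound element is known on this side of the globin genes from red blood cells, and whether the Olfr67 site is that element was not tested. A match gives the letters in the reference sequence and says nothing of binding in these neurons.

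Receptors that are alike in sequence mostly shared an interval, but near-copies also fell into different intervals. Olfr671 and Olfr675, for example, shared 95.3% and had TSSs 28.4 and 21.0 kb from boundary 7, in intervals 7 and 8. Translations of the annotated coding sequences were available for 128 members, with a median of 317 residues (297 to 346). Olfr643 had none, its annotated model of 139 kb being the longest of the cluster, and Olfr573-ps1 at 0.894 kb had the shortest. The closest relative of a member within the cluster shared a median of 81.5% of residues, from 48.2% for Olfr571 to 98.7% for Olfr596 and Olfr603, and for 93 of 128 members (72.7%) it lay in the same interval. All 1486 pairs in the same interval had a median identity of 47.4%, against 45.2% for the 6642 pairs in different intervals. The share of members with their closest relative in the same interval ran from 36 of 42 members in interval 4, where the closest relative had a median identity of 89.6%, to 4 of 10 in interval 6, where it had 70.4%, among the intervals that lie wholly inside the cluster. Larger intervals hold more candidates for a closest relative. The closest relative also lay a median of 43.9 kb away, against a median of 365 kb for each member's own interval. The part of interval size and of nearness along the chromosome in these shares was not tested. Pairs share members and are not independent, and these medians are given as a description.

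Direct neighbours parted by a boundary ran from a pair of near-copies to pairs that were little alike. The 8 such pairs had a median identity of 69.0%, against 52.7% for the 118 neighbouring pairs within an interval. Sides were set by TSS against the midpoint of each 5000 bp entry. The TSSs of Olfr543, Olfr554 and Olfr69 lay inside the entry itself, 0.821, 0.932 and 0.906 kb from its midpoint. For their pairs the separation is finer than the width of an entry. Olfr69 and Olfr68, parted by boundary 4, shared 97.1% of residues, and each was the other's closest relative. Olfr553 and Olfr554, parted by boundary 2, shared 81.4% and were also each other's closest, as were Olfr690 and Olfr691 with 71.7%, parted by boundary 8. Across the strong boundaries, Olfr543 and Olfr544 shared 59.2%, and Olfr649 and Olfr651 shared 74.2%. The least alike pair across a boundary was Olfr661 and Olfr665 with 37.7%. Within an interval the values ran from 35.6% for Olfr659 and Olfr661 to 98.1% for Olfr611 and Olfr612. The medians, within an interval minus across a boundary, differed by -16.3 percentage points. This difference was not tested, and the value across a boundary rests on 8 pairs.

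**Figure D5:**
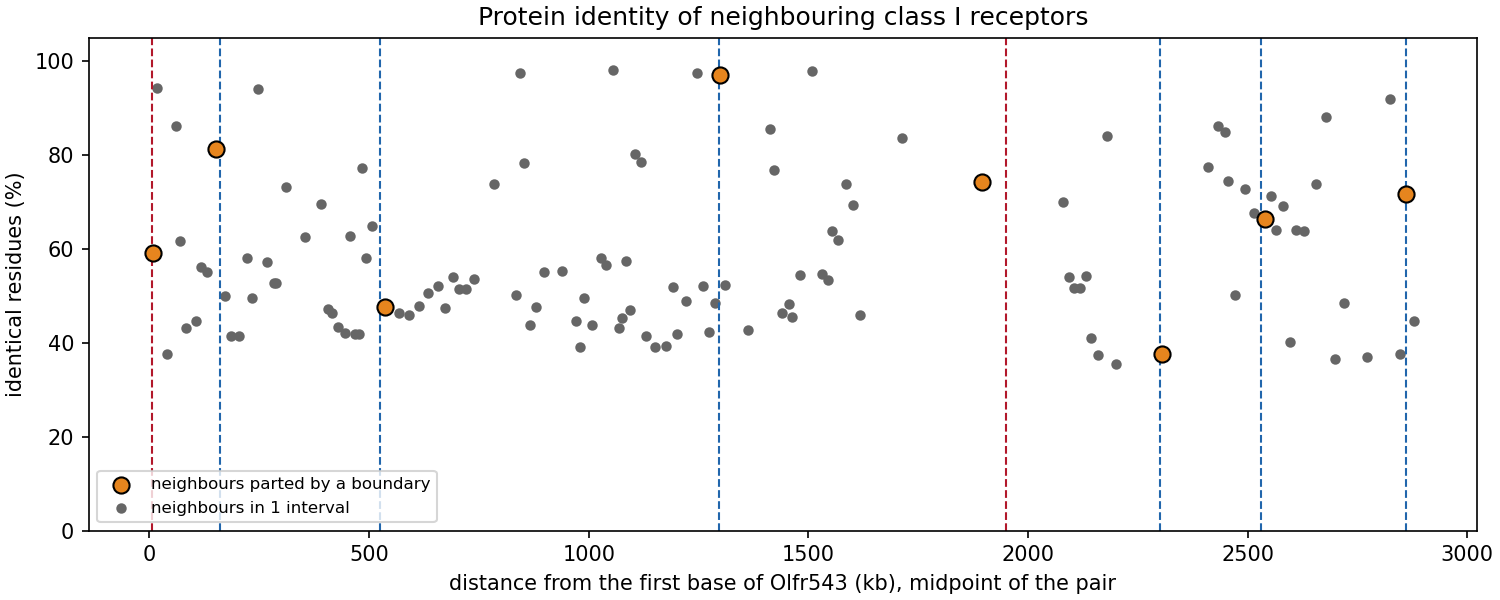
Identical residues (%) between neighbouring class I receptors against the midpoint of the pair, in kb from the first base of Olfr543. Large points are the 8 pairs with TSSs on opposite sides of a boundary midpoint, from 37.7 to 97.1%. Small points are the 118 pairs within an interval, and dashed lines are boundaries, red for strong and blue for weak.

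Compared with all 1144 translated receptors by BLAST, 126 of the 128 members had their best match inside the cluster. The median identity was 82.6% to the best match inside and 47.7% to the best outside. This set is larger than the 1135 protein-coding receptor models, and 131 of its proteins lie in the cluster. A best match inside is therefore not always a member. Olfr657 and Olfr658, neighbours in interval 6, were the exceptions. Olfr657 matched Olfr504 at 92.2% and Olfr658 matched Olfr503 at 93.5%, against 70.4% and 83.9% for their best matches inside. Olfr503 and Olfr504 belong to another chromosome 7 cluster, Olfr467 to Olfr519. Members were set by position and name, so a receptor like class I that lies elsewhere counts here among the other receptors. The class of Olfr503 and Olfr504 was not tested. Identity of the members to Olfr1507, the receptor of the sorted cells, ran from 26.6 to 37.2% with a median of 32%.

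Promoters of 300 bases, 250 before to 50 after the TSS of the gene model, were searched on both strands for motifs known from odorant receptor promoters. The core of the Ebf factors, CCCNNGGG, was found in 22 of the 129 class I promoters (17.1%), against 15.2% of the other receptors and 15.9% of all coding promoters. TAATTA, the core bound by homeodomain factors such as Lhx2 and Emx2, was found in 20 (15.5%), against 25.2% of the other receptors and 5.22% of all coding promoters. The letters TATAAA were found in 41 (31.8%), against 33.6% of the other receptors and 12.7% of all coding promoters. Class I promoters had a median GC content of 40.3%, against 37% for the other receptors and 55.7% for other coding genes. The part of GC content in these shares was not tested. By interval, the homeodomain core was found in 11 of 42 members in interval 4, 3 of 8 in interval 7 and 2 of 23 in interval 3. It was found in 1 of 20 in interval 5, 1 of 14 in interval 8, 1 of 2 in interval 9 and 1 of 1 in interval 1. Interval 2 had 0 of 9 and interval 6 had 0 of 10, and most intervals hold too few members to compare. Among the 17 members with a single-exon model, 3 held the Ebf core, 3 the homeodomain core and 7 TATAAA. Several of these models are hardly longer than their coding sequence, such as Olfr547 with 0.936 kb for 311 residues. For these the start of the model may not be the true TSS, and the window may miss the promoter.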

How the data were processed

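In situ Hi-C of 2 biological replicates was combined by the authors, per the series design text, into 1 contact map on which boundaries were called. Their deposited strength is a score, and the sources used here give neither its scale nor the caller, the aligner and the filters. GRCm38 is named in the submitters' processing notes. The list holds no counts, so the depth behind a boundary is unknown.

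Boundaries were joined to the GRCm38 reference, which is of another strain than the mice, and to release 21 of the mouse GENCODE annotation with Python 3.11.15, pandas 2.3.3 and numpy 2.4.6. Intervals run between midpoints of neighbouring boundaries. Wilson intervals at 95% (scipy 1.17.1) cover counting error only. RefSeq proteins were planned, and translations of annotated coding sequences were used instead, aligned with Biopython 1.88 (gap opening 11, extension 1) and BLAST+ 2.17.0. The matching of genes to boundaries and the motif search were tested on planted boundaries and sites. The distance to the nearest boundary was checked for a single gene, and the other steps were not part of these tests.

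Members, lists and alternatives were chosen with earlier results of these data known. Genes were named by rule: the first and last member of each interval, members at or nearest to a boundary, all enclosed genes, the flanking genes, and the extremes of model length and identity. Other genes are named where they were singled out after their values were seen, such as Olfr603, Olfr571, Olfr657 and Olfr658.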

Additional observations from a re-analysis of the deposited data

How the results depend on the processing

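Of 31 alternative settings, 14 were labelled as leaving a value unchanged or near the one reported, and 17 as moving it. The 14 include the rank change from 8 to 12 given below. They also include members at a boundary going from 8 to 11 with Olfr models of any biotype. The identity difference, also among them, went from -16.3 to -13.6 percentage points with strong boundaries only, where 2 pairs lay across. With strong boundaries only, the cluster held 2 boundaries (0.691 per Mb, below the 0.804 per Mb of the other clusters pooled, whereas with all boundaries it lay above them, and rank 14 of 33), 2 members at a boundary, at most 94 members in an interval, a median interval of 1235 kb and a last edge 293 kb from the nearest boundary. With only the strongest 1842 boundaries of the list, 1 boundary remained (0.346 per Mb), and 128 members lay in 1 interval. The count of members at a boundary was 3 with no added flank (2.33%, against 3.45% of all coding genes), 19 with 25 kb (14.7%, against 25%) and 33 with 50 kb (25.6%, against 44%). The count of boundaries with a CTCF motif match was 3 with 25 kb (39.1% of all boundaries), 4 with 50 kb (52.4%) and 6 with up to 1 mismatch (88.4%). Counting all biotypes gave 74 enclosed genes. With runs under 200 kb apart the cluster was cut at the gap after Olfr649, and the part of 95 genes ranked 12 of 34. No paired analysis was possible because the list combines both replicates, which also kept either from being left out. How many boundaries a map shows depends on its depth and bin size, and the sources used here state neither. All entries of the list are 5000 bp wide, and positions within an entry are not resolved by it.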
